A study of Mus musculus with 4 samples.

Results

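The genes described here are those named for the constitutive subunits of the proteasome. They were taken as every probe set that the platform annotation pairs with exactly 1 gene symbol beginning with Psma, Psmb, Psmc or Psmd and a digit, leaving out the inducible subunits Psmb8, Psmb9 and Psmb10. The rule found 45 probe sets of 35 genes among 12422 non-control probe sets of 8252 singly named genes. It used no measured value. It also took in Psmc3ip, which encodes a meiotic recombination factor that binds Psmc3 and is not a proteasome protein. The other 44 probe sets belong to 34 genes, of which Psmd5, Psmd9 and Psmd10 encode assembly chaperones and the rest subunits.

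The samples were total RNA from mouse embryonic fibroblasts (MEF), connective tissue cells grown from embryos, of wild-type or XIAP knockout genotype. XIAP, the X-linked inhibitor of apoptosis protein, binds caspases and has ubiquitin ligase activity. Confluent cultures were left untreated or given 20 ng/ml tumour necrosis factor (TNFa) for 4 hours. Each of the 4 combinations was hybridised to 1 Affymetrix U74Av2 array: wild-type unstimulated, wild-type with TNF, knockout unstimulated and knockout with TNF. The embryonic age, the strain, the part of the gene removed, and whether a culture came from 1 embryo, a pool or an established line are not stated in the labels. With 1 array a group no difference between 2 arrays has a replicate check, and any genotype difference cannot be told apart from other differences between the cultures.

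The proteasome degrades proteins tagged with ubiquitin. Its barrel-shaped 20S core stacks outer rings of alpha subunits, which gate the entrance, on inner rings of beta subunits, some of which cut peptide bonds. A 19S regulatory cap has a base of ATPases that unfold substrates and a lid that removes the ubiquitin chain. In TNF signalling the proteasome destroys the inhibitor that holds the transcription factor NF-kB in the cytoplasm. Interferons and TNF are known to induce alternative catalytic subunits, which replace the constitutive ones in newly made immunoproteasomes.

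The values are deposited signals on a linear scale. A signal above 92.5, the 40th percentile of all non-control signals, counted as measured, and lower signals were raised to that floor before conversion to log2. Of the 45 probe sets, 38 were above the floor on all 4 arrays and 7 were below it on all 4, so no member was measured through 1 group alone. The 38 covered 32 genes, with signals of 162.6 to 6241. The 7 dim ones, with signals up to 72.0, were the only probe sets of Psmc4, Psmd2 and Psmc3ip and further probe sets of Psmb1, Psmc5 and Psmb4. Of the 38, 10 carry a name suffix that marks shared or reduced probe sequences, and their signal can include similar transcripts.

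Median signal over all non-control probe sets was 150.75 to 183.1, with equal trimmed means. Nfkbia, which encodes the NF-kB inhibitor and is a standard TNF target, was 6.20-fold higher with TNF in wild-type and 5.91-fold in knockout cells. Xiap was dim, and its brightest probe set had a log2 knockout to wild-type difference of -0.41 without and -0.07 with TNF, which does not check the labels because the deleted part is unknown. Of 7 fibroblast marker genes, 6 were above the floor on every array (summed signal 51790 to 57881 by array), while the probe set of Vim was near or below it. Most of that sum is Col1a1 and Col1a2. Without and then with TNF, Thy1 had 1120 and 1384 in wild-type but 308.5 and 219.4 in knockout cells. Pdgfrb had 924.8 and 790.7 against 568.6 and 429.2. Of 10 fibroblast probe sets measured without TNF, 2 were past 1.5-fold lower in the knockout (12.4% of all probe sets) and 0 higher (11.9%). The summed signal of 5 leukocyte markers was 325.2 to 655.9, with Ptprc, Adgre1 and Itgam below the floor throughout. Cd68 and Csf1r were above the floor on all arrays. The Csf1r probe set that was measured had 355.1 and 113.9 in wild-type and 373.2 and 293 in knockout cells. It carries a suffix for shared or reduced probes. The summed signal was 155.1 to 357.6 for 4 endothelial and 369.9 to 715.9 for 5 epithelial markers. Cdh1 was the one epithelial gene above the floor on all arrays. The leukocyte and epithelial sums were lowest on the wild-type TNF array, as was the share of probe sets above the floor (57.3%, with at most 61.8% on the others); their part in the results was not tested. That array also had the lowest median signal and the highest summed signal of the 38 members, 90331 against 80083, 81245 and 84387 for wild-type unstimulated, knockout unstimulated and knockout with TNF.

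The constitutive proteasome genes had nearly the same signal in all 4 cultures. No measured member differed by 2-fold in any comparison, and all 4 signals lay within 2-fold for 38 of 38, against 81.5% of probe sets above the floor on every array. All 4 signals lay within 1.5-fold of each other for 31 of 38 member probe sets, against 50.4% of the 6664 probe sets above the floor on every array. For the brightest 20% of measured probe sets this share was 63.9%, and 22 of the 26 members that bright met it. The median ratio of highest to lowest signal was 1.32 among members and 1.37 in the brightest 20%. The 7 members with a wider spread were Psma6, Psma7, Psmb2, Psmd4, Psmd10 and 1 probe set each of Psmb5 and Psmc3.

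**Figure D1:**
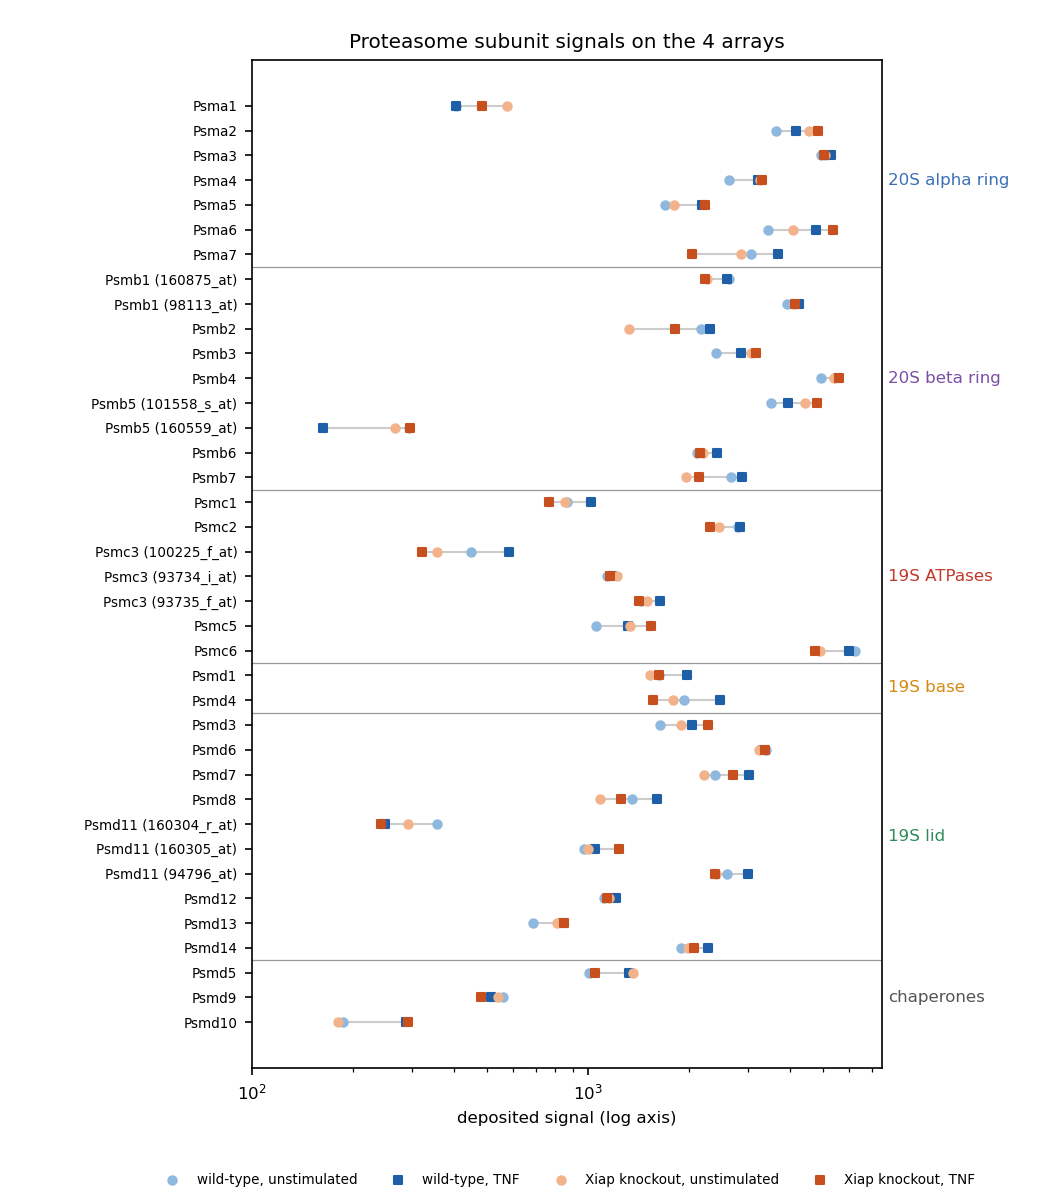
Deposited signal (log axis) of the 38 measured member probe sets on the 4 arrays, 1 symbol per array, grouped by place in the particle, with grey lines joining the lowest and highest signal; positions do not compare levels between genes. Of the rows, 31 span less than 1.5-fold, and the widest are a dim Psmb5 probe set, a dim Psmc3 probe set, Psma7 and Psmb2.

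In wild-type cells TNF was accompanied by slightly higher signals across the particle. The log2 difference was above 0 for 32 of 38 members, against 38.2% of 7846 measured probe sets and 55.9% of the brightest 20%. Its median was 0.19 among members (quartiles 0.1 and 0.3), -0.1 among all and 0.04 in the brightest 20%. Only 1 member was at least 1.5-fold higher (background 6.18%) and 1 at least 1.5-fold lower (background 13.7%); none of the 38 was past 2-fold in either direction (background 2.54% higher and 2.79% lower). Scaling the arrays to equal medians moved the median of all probe sets to 0.16 and of the members to 0.47, with 36 of 38 above 0 (64.8% of all probe sets under that scaling) and 9 past 1.5-fold, all higher (13.9% of all). Relative to the median of all probe sets the members stood at 0.30 on the deposited scaling, 0.31 with equal medians and 0.15 with quantile normalization.

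In knockout cells the members were centred near no change. Here 21 of 38 were above 0 (background 41.1%), and the median log2 difference was 0.03, against -0.05 among all 7764 measured probe sets and -0.02 in the brightest 20%. With equal medians 27 of 38 were above 0, against 49.7% of all probe sets. The count past 1.5-fold was 1 higher (background 3.98%) and 0 lower (background 3.16%), and past 2-fold it was 0 in both directions (background 1.57% and 0.399%). Taken over both genotypes, 19 members were higher with TNF in each pair of arrays (22.8% of 7382 probe sets), 4 lower in each (42.4%), 13 higher in wild-type and lower in knockout cells (16.1%), and 2 the reverse (18.6%).

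TNF and genotype were tested in an additive model over the 4 arrays. In this limma fit, with Benjamini-Hochberg adjustment over 8228 probe sets, 0 of 38 members passed an adjusted p of 0.05 for TNF, while 1.17% of all probe sets did (1.08% higher and 0.0851% lower). At an unadjusted p below 0.05 there were 5 members, all higher (Psma5, Psma6, Psmd3, Psmd7 and Psmd10), against 6.11% of all probe sets higher and 7.56% lower. The smallest adjusted p among members was 0.106, for Psma6. The model counts a difference of response between the genotypes as error and has 1 residual degree of freedom.

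**Figure D2:**
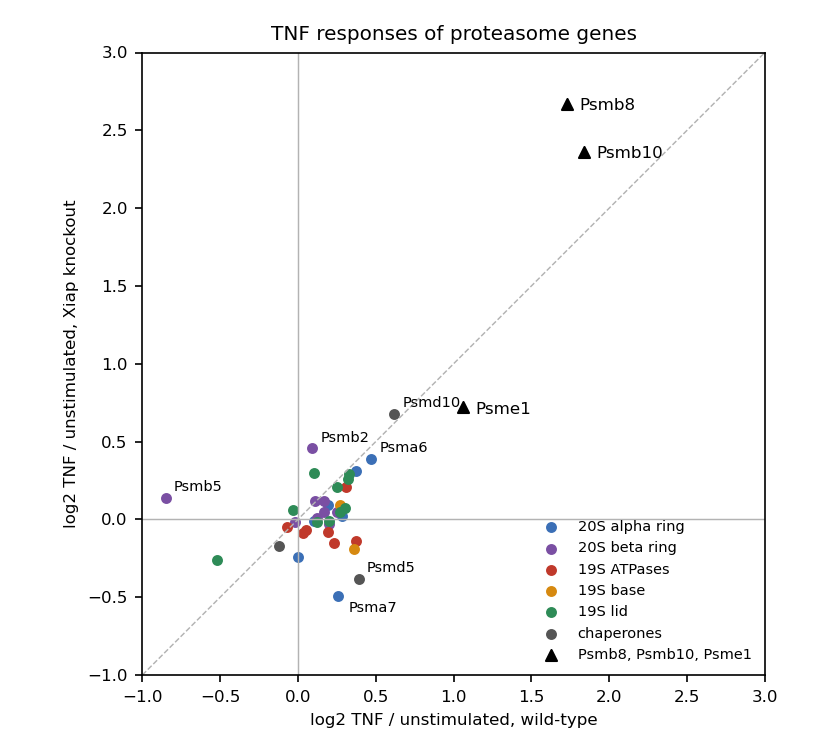
Log2 ratio of TNF-treated to unstimulated signal in wild-type (horizontal) and Xiap knockout cells (vertical) for the 38 members, coloured by place in the particle, with Psmb8, Psmb10 and Psme1 as triangles; the dashed line marks equal responses. All members lie within -0.85 and 0.68 on both axes, while Psmb8 and Psmb10 lie between 1.73 and 2.67.

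Among the alpha subunits, which form the outer rings and the gate of the core, all 7 genes had a wild-type TNF difference of 0 or above (median log2 0.26, highest 0.47), and 4 of 7 were above 0 in knockout cells (median 0.02). Psma6 had 3439 and 4765 in wild-type and 4086 and 5361 in knockout cells, in each case without and then with TNF, the order used throughout. It was thus higher on both TNF arrays than on either unstimulated array, an order whose share over all probe sets was not counted. The ratio was 1.39-fold in wild-type and 1.31-fold in knockout cells, and the additive effect was 0.43 (SE 0.09, limma adjusted p = 0.106, 0.0711 to 0.354 over 8 alternative settings, higher in both pairs). Psma5 had the same order, with 1696 and 2190 in wild-type and 1797 and 2232 in knockout cells (effect 0.34, SE 0.10, limma adjusted p = 0.228).

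Psma7, another alpha subunit, had the lowest TNF difference of its ring in knockout cells (log2 -0.49, with Psma1 at -0.24 and Psma3 at -0.01). Its signals were 3057 and 3668 without and with TNF in wild-type cells, and 2855 and 2034 in knockout cells. The TNF-treated knockout array was the lowest of the 4, 1.80-fold below wild-type cells under TNF, whereas the unstimulated arrays were within 1.07-fold. Psma1 had 403.4 and 404.4 in wild-type and 572.1 and 483.3 in knockout cells, so both knockout arrays were the higher ones (log2 0.5 without and 0.26 with TNF). Psma2, Psma3 and Psma4 varied by 1.07-fold to 1.33-fold over the 4 arrays.

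The catalytic beta subunits are Psmb6, Psmb7 and Psmb5, which carry the caspase-like, trypsin-like and chymotrypsin-like activities of the constitutive core. Their inducible counterparts are Psmb9, Psmb10 and Psmb8 in the same order. Psmb5, by its brighter probe set, had signals of 3499 and 3930 without and with TNF in wild-type cells, and 4422 and 4814 in knockout cells. The TNF ratio was 1.12-fold and 1.09-fold. That probe set carries a suffix for shared probes, so its signal can include similar transcripts. The Psmb5 counterpart Psmb8 went from 240.8 to 801.3 and from 123.3 to 784.1. The groups of 2 arrays with and without TNF did not overlap for Psmb8, and for Psmb5 they did. How common such overlap is among all probe sets was not counted.

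A match to the binding motif of known regulators of proteasome genes was found before 5 member genes. The stretch before the start site of Psmb5 is shown as an example of these. It is a RefSeq sequence of GRCm38.p6, the 250 bases up to the gene start, on the gene's strand, and overlaps no other listed gene. Capitals mark the match; motifs were searched on both strands.
Psmb5, chr14:54617996-54618245, minus strand: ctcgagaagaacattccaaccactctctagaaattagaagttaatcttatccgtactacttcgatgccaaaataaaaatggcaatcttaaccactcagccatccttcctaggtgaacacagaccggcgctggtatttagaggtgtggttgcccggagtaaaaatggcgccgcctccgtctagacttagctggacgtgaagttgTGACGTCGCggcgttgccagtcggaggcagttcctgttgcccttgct

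The capitals in Psmb5 match TGACNNNGC, the core of the antioxidant response element that transcription factors of the Nfe2l1 and Nfe2l2 family bind, from -47 to -39. TGACNNNGC was found before 5 of the 29 member genes with a listed start (Psmb5, Psmb6, Psmc6, Psmd9 and Psmd12; 17.2%), against 10.2% of 32851 listed starts. The NF-kB consensus was found before 5 of 29 (Psma6, Psma7, Psmd11, Psmd12 and Psmd13; 7.25% of all starts). The core of the interferon-stimulated response element was found before 3 of 29 (Psmb3, Psmd4 and Psmd9; 2.98%), and CCAAT before 12 of 29, Psmc3ip among them (33.8%). A member gene counted if any of its listed starts matched, while the background counts each start, so these shares are not like for like. A match is a run of letters and not a site shown to be bound.

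Psmb6 had signals of 2109 and 2416 in wild-type and 2206 and 2159 in knockout cells, a range of 1.15-fold over all 4. Psmb7 had 2661 and 2875 in wild-type and 1962 and 2137 in knockout cells. Its TNF ratio was 1.08-fold and 1.09-fold, while Psmb10 at the same place in the core was 3.57-fold and 5.12-fold higher with TNF. Psmb9 had 16.6 and 90.0 in wild-type and 12.9 and 207.5 in knockout cells. Only the last was above the floor (at least 2.24-fold higher), and the wild-type signal with TNF was just below it. The additive TNF effect of Psmb10 was 2.10 (SE 0.16, limma adjusted p = 0.00320) and that of Psmb8 2.20 (SE 0.27, limma adjusted p = 0.0213), each higher in both pairs, and of their counterparts 0.12 for Psmb7 (SE 0.10, limma adjusted p = 0.599) and 0.15 for Psmb5 (SE 0.09, limma adjusted p = 0.497).

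A second, much dimmer Psmb5 probe set disagreed with the bright one, and unlike it carries no suffix for shared probes. It had 293.5 and 162.6 in wild-type and 267.1 and 294.7 in knockout cells, so TNF-treated wild-type cells alone stood low. This was the only member at least 1.5-fold lower with TNF in wild-type cells (1.81-fold), and the only member at least 1.5-fold higher in knockout than in wild-type cells under TNF (1.81-fold). The bright probe set gave a log2 difference of 0.17 and 0.29 in those comparisons, against -0.85 and 0.86. The non-catalytic beta subunits Psmb1, Psmb3 and Psmb4, each by its measured probe sets, spanned 1.09-fold to 1.32-fold over the 4 arrays.

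Psmb2, a structural beta subunit, had 2164 and 2310 in wild-type and 1320 and 1821 in knockout cells. Both knockout arrays were below both wild-type arrays, an order not counted over all probe sets here or below. The ratio was 1.64-fold without TNF, the only member past 1.5-fold in that comparison, and 1.27-fold with TNF.

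The 6 ATPases of the base form the ring that unfolds substrates and threads them into the core. Of 7 measured probe sets of 5 ATPase genes, 6 were above 0 with TNF in wild-type (median log2 0.19) and 1 in knockout cells (median -0.08). Psmc5 had 1059 and 1315 in wild-type and 1335 and 1545 in knockout cells, higher with TNF in each pair. Psmc6 had 6241 and 5963 in wild-type and 4891 and 4737 in knockout cells. It hardly differed with TNF, and both knockout arrays were lower. Psmc1 and Psmc2 spanned 1.33-fold and 1.23-fold.

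The probe sets of Psmc3 disagreed under TNF. The dimmest of its 3 had 448.5 and 581.1 in wild-type and 355.1 and 321.7 in knockout cells, 1.81-fold lower in the knockout under TNF. The brighter ones gave log2 differences of -0.02 and -0.21 there. All 3 carry a suffix for shared or reduced probes.

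In the non-ATPase part of the base, Psmd1, a scaffold subunit, had 1632 and 1972 in wild-type and 1532 and 1625 in knockout cells. Psmd4, a receptor for ubiquitin chains, had 1936 and 2479 in wild-type and 1786 and 1562 in knockout cells. Its highest signal was thus in TNF-treated wild-type and its lowest in TNF-treated knockout cells, 1.59-fold apart. Without TNF the genotypes were within 1.08-fold.

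The lid detaches ubiquitin from substrates through the metalloprotease Psmd14. Of 10 measured probe sets of 8 lid genes, 8 were above 0 with TNF in wild-type (median log2 0.22) and 7 in knockout cells (median 0.06). Psmd14 had 1886 and 2273 in wild-type and 1991 and 2061 in knockout cells, a span of 1.21-fold. Psmd7, which pairs with Psmd14, had 2387 and 3005 in wild-type and 2221 and 2707 in knockout cells, both TNF arrays being above both unstimulated ones. Psmd3, a structural lid subunit, had 1634 and 2043 in wild-type and 1892 and 2273 in knockout cells, again higher with TNF in each pair. The additive effects were 0.31 for Psmd7 (SE 0.09, limma adjusted p = 0.241) and 0.29 for Psmd3 (SE 0.10, limma adjusted p = 0.285), so neither passed.

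Psmd6, Psmd8, Psmd12 and Psmd13 spanned 1.05-fold to 1.48-fold over the arrays, Psmd8 being the widest with both knockout arrays below both wild-type arrays (1350 and 1602 against 1084 and 1251). The 3 probe sets of Psmd11 went different ways. A dim one had 355.8 and 248.3 in wild-type and 291.4 and 242.6 in knockout cells, lower with TNF in each pair (log2 -0.52 and -0.26). The brighter ones gave 0.1 and 0.2 in wild-type and 0.3 and -0.01 in knockout cells. The dim one carries a suffix for shared or reduced probes, and the brighter ones do not.

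Psmd5, Psmd9 and Psmd10 encode chaperones that help assemble the base and are not part of the finished particle. Psmd10, also called gankyrin, had 187.0 and 288.0 in wild-type and 180.8 and 290.4 in knockout cells. The TNF arrays were higher than the unstimulated arrays, 1.54-fold in wild-type and 1.61-fold in knockout cells. They did not overlap, and the share of all probe sets without such overlap was not counted. Psmd10 was the only member past 1.5-fold higher in either TNF comparison, and at these low signals its additive effect of 0.65 (SE 0.22) had a limma adjusted p of 0.278 on the deposited scaling and of 0.0187 with equal medians (up to 0.339 over 7 alternatives). With the floor at the 60th percentile (a signal of 290.7) it was below the floor on all arrays.

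Psmd5 had 1007 and 1323 in wild-type and 1366 and 1048 in knockout cells. TNF went with a 1.31-fold higher signal in wild-type and a 1.30-fold lower one in knockout cells. Psmd9 had 559.8 and 515.9 in wild-type and 539.5 and 480.3 in knockout cells, a span of 1.17-fold. Its probe set carries a suffix for shared or reduced probes.

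**Figure D3:**
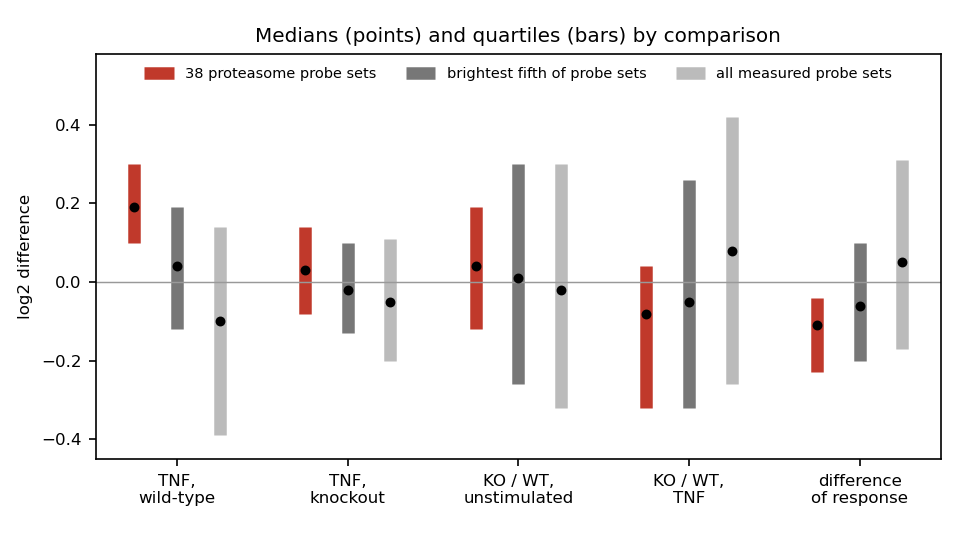
Median (points) and quartiles (bars) of the log2 difference in each comparison for the 38 members, for the brightest 20% of measured probe sets and for all measured probe sets. The member median is 0.19 for TNF in wild-type cells, where that of all probe sets is -0.1, and lies within 0.11 of 0 elsewhere.

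Between the genotypes the members differed little compared with the array as a whole. Without TNF, 20 of 38 were above 0 in the knockout (background 48.3%), the median log2 difference was 0.04 against -0.02 for all 8060 measured probe sets, and the quartiles were -0.12 and 0.19 against -0.32 and 0.3. Past 1.5-fold there were 0 higher (background 11.9%) and 1 lower, Psmb2 (background 12.4%). None of 38 was past 2-fold (background 4.53% higher and 4.58% lower). By ring, 6 of 7 alpha subunits were above 0 (median 0.25), as were 5 of 9 beta probe sets (median 0.07) and 3 of 7 ATPase probe sets (median -0.03).

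Under TNF, 15 of 38 were above 0 in the knockout (background 56.5%), and 6 of 38 with equal medians (background 41.3%), and the median was -0.08 against 0.08 for all 7754 measured probe sets and -0.05 in the brightest 20%. Past 1.5-fold there were 1 higher (the dim Psmb5 probe set; background 16.3%) and 3 lower (Psma7, Psmd4 and the dim Psmc3 probe set; background 11.5%). None was past 2-fold (background 5.83% higher and 4.97% lower). This comparison shares its arrays with the TNF comparisons, so its values are not separate evidence.

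In the additive limma fit 3 of 38 members were lower in knockout cells at an adjusted p below 0.05 and 0 higher, against 9.18% of 8228 probe sets lower and 10.2% higher. Psmb7, the trypsin-like catalytic subunit, had an effect of -0.43 (SE 0.10, limma adjusted p = 0.0250, 0.0192 to 0.123 over 8 alternative settings); its probe set carries a suffix for shared probes. Psmb2 had an effect of -0.53 (SE 0.12, limma adjusted p = 0.0314, 0.0195 to 0.115 over the alternatives). The ATPase Psmc6 had one of -0.34 (SE 0.09, limma adjusted p = 0.0399, 0.0150 to 0.228 over the alternatives). Each was lower in both knockout arrays than in both wild-type arrays. The fit favours probe sets whose pairs of arrays differ alike, so this order is not separate evidence. The share of members called was below that of all probe sets, where 19.4% were called in either direction. At an unadjusted p below 0.05, 4 members were higher and 8 lower, against 18.1% and 15.4% of all probe sets. The bright Psmb5 probe set was on the other side, with an effect of 0.32 (SE 0.09, limma adjusted p = 0.0540, 0.0404 to 0.546 over the alternatives).

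These 3 calls depended on the settings. Without the intensity trend none of the 38 passed (adjusted p = 0.115 for Psmb2, 0.123 for Psmb7 and 0.191 for Psmc6, in limma). With equal medians Psmb2 passed but Psmb7 (limma adjusted p = 0.0644) and Psmc6 (0.228) did not, and Psma7 and the dim Psmc3 probe set did.

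**Figure D4:**
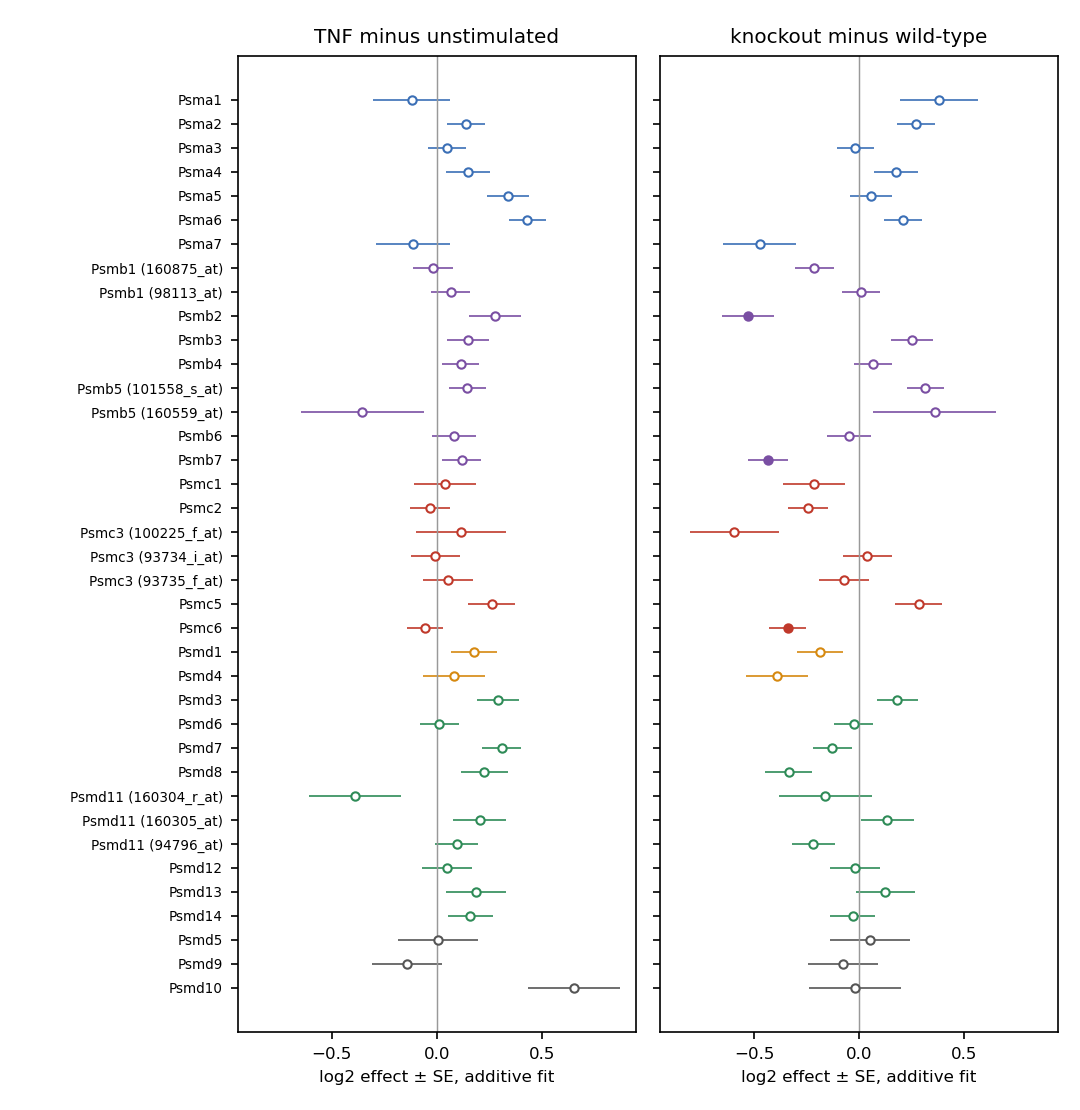
Additive log2 effects of TNF (left) and of knockout genotype (right) with their standard errors for the 38 members, from the limma fit over 4 arrays; filled points have an adjusted p below 0.05. No TNF effect is filled, and Psmb2, Psmb7 and Psmc6 are filled below 0 on the right.

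The TNF response of the members was on the whole a little smaller in the knockout. The difference of the log2 responses, knockout minus wild-type, was below 0 for 29 of 38 members and above 0 for 9 (background above 0: 55.9% of 8228). With equal medians 3 of 38 were above 0 (background 34.2%), and with quantile normalization 13 (background 50.1%). Its median was -0.11, against 0.05 for all probe sets and -0.06 in the brightest 20%, where 40.2% were above 0. All 7 alpha subunits were below 0 (median -0.11). Past 1.5-fold were Psma7 (-0.75) and Psmd5 (-0.78) below (background 5.1%) and the dim Psmb5 probe set (0.99) above (background 11.4%), and none was past 2-fold (background 1.23% below and 2.69% above). No test of this difference is possible with 1 array a group.

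Other genes of the proteasome system were described from lists chosen beside the members. Among the activators, Psme1, a subunit of the PA28 ring that caps the core in antigen-presenting and cytokine-treated cells, had 1069 and 2232 in wild-type and 1046 and 1725 in knockout cells. Its additive TNF effect was 0.89 (SE 0.13, limma adjusted p = 0.0354), higher in both pairs. Psme3, which encodes the nuclear PA28 gamma, had 649.4 and 1314 in wild-type and 1030 and 1287 in knockout cells. So 2 of 3 measured activator genes were past 1.5-fold higher in wild-type (background 6.18%) and 1 of 3 in knockout cells (background 3.98%).

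Of 6 measured probe sets of the 5 core assembly chaperone genes, 0 were past 1.5-fold higher with TNF in either genotype (background 6.18% in wild-type and 3.98% in knockout cells). Past 1.5-fold lower there was 1 in wild-type (background 13.7%) and 0 in knockout cells (background 3.16%). Psmg3 had probe sets that disagreed (log2 -0.64 and 0.28 with TNF in wild-type cells). Among partners, Ecpas, which binds both particles, was the only one of 5 past 1.5-fold with TNF in wild-type cells (background 19.9% in either direction). It had 816.5 and 474.9 in wild-type and 765.8 and 723.1 in knockout cells.

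Genes listed as regulators of the proteasome were also measured. Nfe2l1, the factor that restores proteasome transcripts when the particle is inhibited, had 3696 and 4410 in wild-type and 2576 and 3621 in knockout cells by its brighter probe set, and was named after its values were seen. Its additive genotype effect was -0.4 (limma adjusted p = 0.0384, lower in both pairs) and its log2 genotype difference was -0.52 without and -0.28 with TNF. Its other measured probe set, with 1643 and 1872 in wild-type and 1352 and 1971 in knockout cells, did not pass (effect -0.1, limma adjusted p = 0.621; log2 -0.28 without and 0.07 with TNF). Nfe2l2, the oxidative stress factor, had 867.2 and 1327 in wild-type and 886.2 and 1109 in knockout cells, log2 0.61 and 0.32. Zfand5, a proteasome-binding zinc finger gene, was higher in both knockout arrays (2824 and 2888) than in both wild-type arrays (1868 and 1721), with an additive genotype effect of 0.67 (limma adjusted p = 0.00668). Of 10 measured probe sets of shuttle receptor and segregase genes, none was past 1.5-fold with TNF in wild-type cells (background 19.9% in either direction). For genotype, Ubqln2 and a probe set of Ubqln1 passed, both higher in the knockout (effects 0.54 and 0.51, limma adjusted p = 0.0261 and 0.0180). The other measured probe sets of that list did not pass. Genotype calls in these lists stand beside 19.4% of all probe sets called in either direction.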

How the data were processed

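Total RNA of 4 mouse embryonic fibroblast cultures was hybridised to 1 Affymetrix U74Av2 array each. The deposited values are MAS5 signal intensities on a linear scale, per the submitters' processing notes; the labels state neither the version nor the scaling target, and the 2% trimmed means were equal to within 1 unit. Detection calls and scan dates were not used here. Genes were named from the platform annotation, and all 35 member symbols matched RefSeq (GRCm38.p6) by Entrez ID.

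Intensities were floored at their 40th percentile, 92.5, and converted to log2 per probe set. Of 12422 non-control probe sets, 8228 exceeded the floor on at least 1 array. Differences between 2 arrays were counted past 1.5-fold and 2-fold. The additive model used limma 3.58.1 (R 4.3.3) with an intensity trend and Benjamini-Hochberg adjustment over 8228 probe sets at 0.05. On simulated data with TNF changes only, its median share of false TNF calls was above that threshold, and most of the smallest changes were missed. Genotype calls were not simulated. With 1 array a group the number of arrays limits precision, and the p-values for TNF and genotype take their error from the departure from additivity and the spread over all probe sets.

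Members and gene lists were chosen with earlier results of these data known. Named by rule were the catalytic subunits, the 3 highest and 3 lowest members of each comparison, members past 1.5-fold or called in the model, genes whose probe sets differed by over 0.5, and up to 3 genes of each related list past 1.5-fold; values of other members were added after they were seen. Alternatives were equal medians, quantile normalization, a floor at the 20th or the 60th percentile, no floor with a pseudocount of 1, the brightest or mean probe set of each gene, and no intensity trend.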

Additional observations from a re-analysis of the deposited data

Results flagged for a closer look

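In 3 members the TNF response went opposite ways in the genotypes and differed by over 1.5-fold. The difference of log2 responses, knockout minus wild-type, was 0.99 for the dim Psmb5 probe set (lower with TNF in wild-type, higher in knockout cells), -0.75 for Psma7 and -0.78 for Psmd5 (both higher with TNF in wild-type and lower in knockout cells). With 1 array a group these differences were not tested. The bright Psmb5 probe set had a difference of -0.05.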

How the results depend on the processing

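No paired analysis was possible because each group has 1 array and the labels give no replicate numbers. No difference past 1.5-fold changed sign. Among 100 log2 differences of named members, 11 changed sign with equal medians and 5 with quantile normalization, and the median of all probe sets changed sign with equal medians (to 0.16 for TNF in wild-type cells, -0.11 for genotype under TNF and -0.16 for the difference). Shares of all probe sets at the same setting stand in brackets. Equal medians moved the median log2 difference of the members to 0.47 for TNF in wild-type cells, -0.28 for knockout against wild-type under TNF and -0.34 for the difference of responses, and the counts past 1.5-fold to 9 for TNF in wild-type cells (19.4%) and 6 for the difference (17.2%); 1 member, Psmd10, was then called for TNF by limma (6.02%). With the floor at the 20th percentile, which admits 6 more probe sets, 4 members were past 1.5-fold with TNF in wild-type (30.8%) and 2 in knockout cells (14.4%), 3 between unstimulated genotypes (30%) and 5 in the difference (28.3%). The admitted probe sets are dim, with signals up to 72.0. They include that of Psmc3ip, which is not a proteasome protein and enters some of these counts. With the floor at the 60th percentile, 0 were past 1.5-fold with TNF in wild-type (12.1%) or knockout cells (4.98%), and 5 were called for genotype by limma (26%). With the brightest probe set, or with the mean of the probe sets, of each gene, 1 was past 1.5-fold with TNF in wild-type cells (19.5% and 15.9%) and 2 between genotypes under TNF (27.6% and 24.6%); the mean left 1 genotype call, Psmb7 (14.4%). Without the intensity trend limma made 0 genotype calls among members and 1049 among all probe sets, against 1596 with it. TNF calls over all probe sets were 96 as reported, 493 with equal medians, 177 with quantile normalization, 15 without the trend and 6 with the mean of the probe sets. The causes were not tested. Low signal limits Psmd10 and the dim Psmb5, Psmc3 and Psmd11 probe sets.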
